A study of Mus musculus with 8 samples.

Results

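Transcript levels of 10 mouse genes that make and load peptides for major histocompatibility complex (MHC) class I molecules were followed in cultured fibroblasts. The genes were chosen by symbol: the immunoproteasome subunits Psmb8, Psmb9 and Psmb10, the proteasome activator subunits Psme1 and Psme2, and the peptide-loading genes Tap1, Tap2, Tapbp, Tapbpl and Erap1. They are 10 of 23304 genes in the count tables and 10 of the 12807 genes tested. RNA sequencing covered NIH3T3 cells, an immortal mouse embryonic fibroblast line, in 8 libraries that fall into 4 groups of 2 by their labels. The groups labelled WT 0 h and KO 0 h received no agent, and those labelled WT 2 h and KO 2 h received mouse recombinant interferon beta (IFN-β, a type I interferon) at 100 units/ml for 2 h. KO stands for CRISPR knockout of Zmynd11, a chromatin reader of histone H3.3 methylated at lysine 36. The labels name neither a clone nor separate cultures, and the spread behind each p-value, that between libraries of a group, may be technical.

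The proteasome cuts cytosolic proteins into peptides, and interferons are known to replace its constitutive catalytic subunits with inducible ones to form the immunoproteasome. The activator built from Psme1 and Psme2 caps the core particle and opens its gate. The transporter of Tap1 and Tap2 carries peptides into the endoplasmic reticulum, where the peptidase Erap1 trims them and the chaperones tapasin (Tapbp) and its relative Tapbpl help to load and edit them on class I molecules.

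The targeted gene went against the labels, so every group below is named only as labelled. Zmynd11 stood at 122 ± 1.62 CPM (SD, n = 2) under the WT 0 h label and at 134 ± 4.26 under the KO 0 h label. It stood at 3.40 ± 0.303 CPM under WT 2 h and at 4.0 ± 0.978 under KO 2 h. Levels thus separated by the time labels. CPM are read counts scaled to a common library size, corrected for composition by TMM. The interferon-induced gene Ifit1 instead separated the libraries by genotype label, at 1.30 ± 0.109 CPM under WT 0 h, 2.84 ± 1.57 under WT 2 h, 213 ± 23.3 under KO 0 h and 388 ± 11.6 under KO 2 h. If the labels WT 2 h and KO 0 h were exchanged, Zmynd11 would be low under both KO labels and Ifit1 high under both 2 h labels, and each comparison called one of time below would be one of genotype and the reverse; an exchange was not tested, and the labels are used as given. Each library held 13671013 to 21299120 gene reads. The second library labelled KO 0 h stood apart, with reads in 17498 genes against 14847 to 15945 in the other 7. Reads in no annotated feature were 13.1 to 13.3% of all reads under WT 0 h, 15.8 to 17.2% under WT 2 h, 12.8 and 17.3% in KO 0 h replicates 1 and 2, and 15.8 to 16.3% under KO 2 h, and their part in the results was not tested. All 8 fibroblast markers were detected, with a summed level of 41034 to 45857 CPM at 0 h and 18528 to 20472 CPM at 2 h. These markers did not move together: Col1a1 stood at 8770 to 10783 CPM at 0 h and 865 to 991 at 2 h, Fn1 at 10481 to 12262 and 10484 to 12447, and Thy1 at 95.5 to 107 and 126 to 130. In bulk RNA, fewer cells of a type and less RNA per cell cannot be told apart. Lymphocyte markers summed to at most 1.0 CPM, with Cd3e at 0 in all 8 libraries, dendritic cell markers to at most 2.07, epithelial markers to at most 5.15 and endothelial markers to at most 3.88.

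Most of the 10 genes had their lowest level under the WT 0 h label and their highest under the KO 2 h label. A gene was called at an adjusted p below 0.05 in edgeR's quasi-likelihood test. Every call of the 10 genes in 4 pairwise comparisons was for a higher level under the 2 h or the KO label; the share of all genes called differs widely between these comparisons and is given with each below. Psmb10 and Tap2 were called in all 4, Tap1 in both genotype comparisons and neither time comparison, and Tapbpl in both time comparisons and neither genotype comparison. Psmb8 and Erap1 were called in none. The comparisons share groups, so their calls are not independent of each other.

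**Figure D1:**
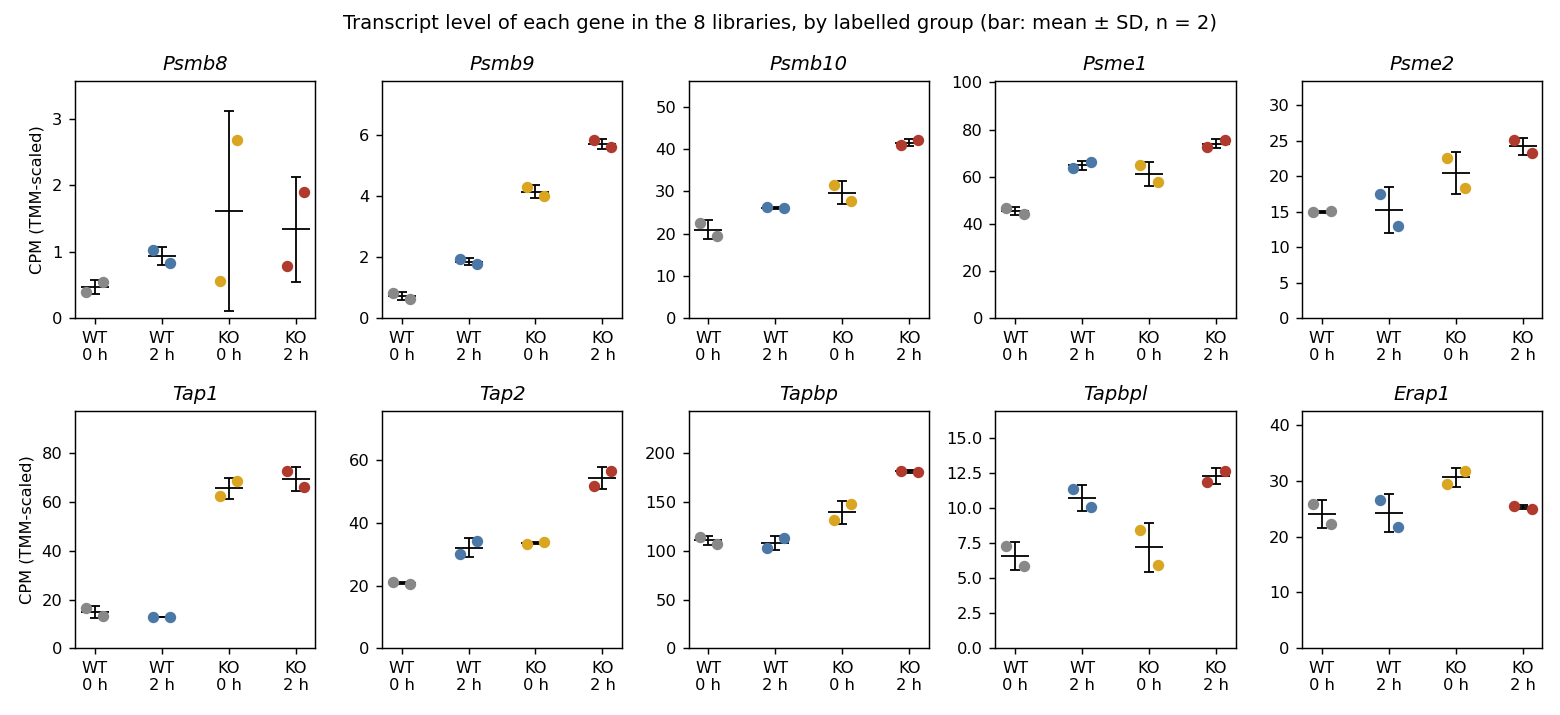
Level of each gene in CPM (y axis, linear, from 0) in the 8 libraries, grouped by label on the x axis; points are libraries and bars are the mean ± SD of 2. Tap1 forms a low pair of groups under the WT labels (12.7 to 16.5 CPM) and a high pair under the KO labels (62.7 to 73.0 CPM), while the KO 0 h libraries of Psmb8 lie at 0.552 and 2.67 CPM.

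Between the libraries labelled 2 h and 0 h, 5 of the 10 genes were higher and 0 lower under the WT label (Psmb9, Psmb10, Psme1, Tap2 and Tapbpl). Among all genes tested, 61.2% were called in that comparison and 30.1% were called higher. Under the KO label 5 were likewise higher and 0 lower (Psmb10, Psme1, Tap2, Tapbp and Tapbpl), beside 61.1% of all genes called and 30.0% called higher. The members' share of calls in either time comparison was therefore no larger than that of all genes, while the share called higher was 5 of 10. Their median log2 fold change was 0.41 under WT and 0.33 under KO, and that of all genes was 0.01 and -0.01. With library size alone as the scale, the median of all genes moved to 0.15 and 0.14, and the calls among all genes split into 4823 higher and 3055 lower under WT instead of 3853 and 3984. Under KO that scale gave 4834 higher and 3036 lower instead of 3838 and 3991.

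Between genotype labels 6 of the 10 genes were called at either time, beside small shares of all genes. At 0 h, 6 were higher and 0 lower under the KO label (Psmb9, Psmb10, Psme1, Tap1, Tap2 and Tapbp), where 3.92% of all genes were called and 2.65% were called higher. At 2 h, 6 were higher and 0 lower (Psmb9, Psmb10, Psme2, Tap1, Tap2 and Tapbp), where 1.60% of all genes were called and 1.59% were called higher. Their median log2 fold change was 0.48 at 0 h and 0.67 at 2 h, beside medians of 0.01 and -0.01 for all genes. At 0 h, 3 of the 6 calls were left when WT 0 h replicate 2 was dropped (Psmb9, Tap1 and Tap2). The count of all genes called at 0 h, 502, was 174 without WT 0 h replicate 1, 191 without WT 0 h replicate 2 and 1073 without KO 0 h replicate 1. The split of those 502 calls was 339 higher and 163 lower, and 275 higher and 221 lower with library size alone as the scale. Without the KO 0 h library that stood apart, 6 members were again called at 0 h, with Psme2 in place of Tapbp.

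**Figure D2:**
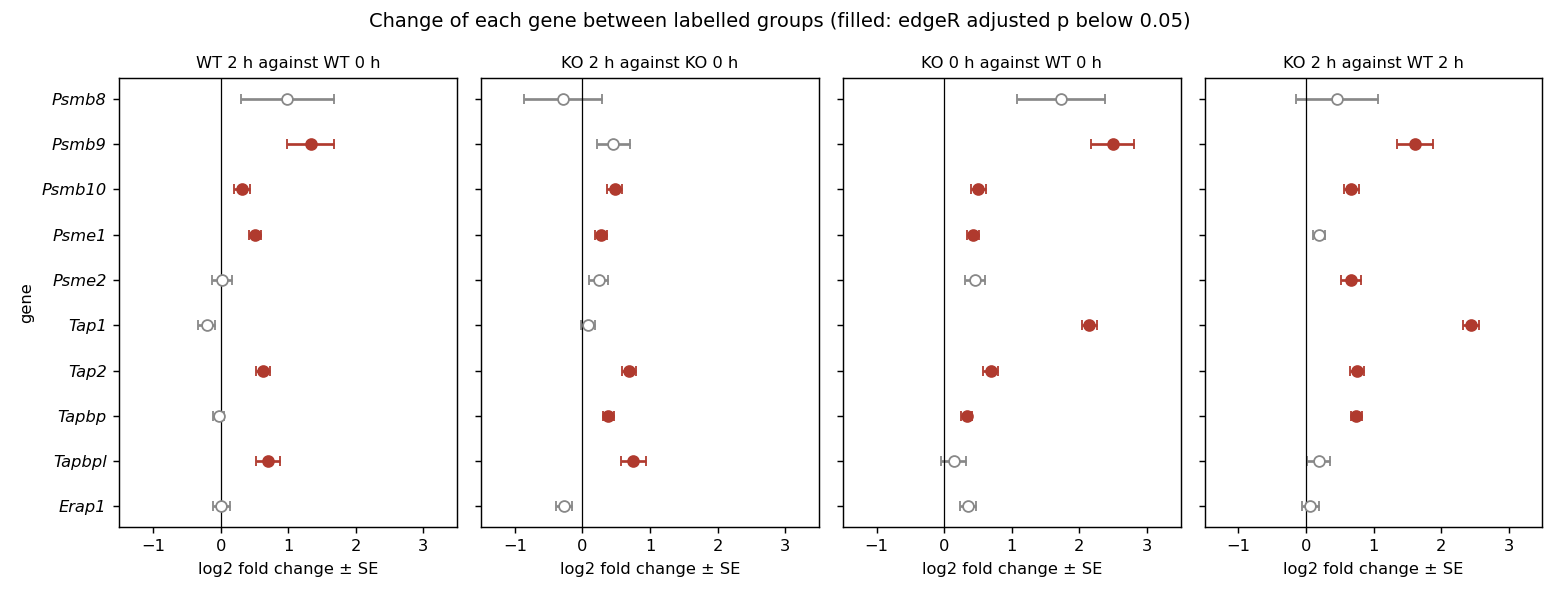
Log2 fold change ± SE (x axis) of each gene in the 4 comparisons; filled red points have an edgeR adjusted p below 0.05 and open grey points do not. The changes of Tap1 and Psmb9 between genotype labels (1.62 to 2.49) exceed every other called change in the 4 panels, the largest of which is 1.33, for Psmb9 between the WT labels.

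Psmb9, whose protein replaces Psmb6 at the caspase-like site of the core, was low under the WT labels and higher under the KO labels. Its level was 0.831 and 0.639 CPM in the WT 0 h libraries, 1.94 and 1.78 in WT 2 h, 4.30 and 4.01 in KO 0 h, and 5.84 and 5.60 in KO 2 h. The 4 groups did not overlap and rose in that order. These levels rest on 13 to 127 reads per library. Psmb9 was 5.62-fold higher under KO than under WT at 0 h (2.49 ± 0.32 SE on the log2 scale, edgeR adjusted p = 9.57e-06) and 3.07-fold higher at 2 h (1.62 ± 0.27, adjusted p = 3.97e-04). It was 2.52-fold higher at 2 h than at 0 h under the WT label (1.33 ± 0.35, edgeR adjusted p = 0.00218). Under the KO label the ratio was 1.38 (0.46 ± 0.24) and missed the threshold (edgeR adjusted p = 0.108), though not with library size alone as the scale (0.61, adjusted p = 0.0359).

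Psmb10, whose protein replaces Psmb7 at the trypsin-like site, was the most abundant of the 3 catalytic genes. It stood at 22.5 and 19.3 CPM under WT 0 h, 26.2 and 26.0 under WT 2 h, 31.5 and 27.7 under KO 0 h, and 40.9 and 42.0 under KO 2 h. The groups rose in the same order as for Psmb9 and did not overlap. The difference between genotype labels was 1.59-fold at 2 h (edgeR adjusted p = 4.20e-04, 0.67 ± 0.11 SE on the log2 scale) and kept its call with each library left out in turn. At 0 h the 1.42-fold difference (edgeR adjusted p = 0.0126) lost its call without KO 0 h replicate 1 (adjusted p = 0.0873) or WT 0 h replicate 2 (0.311). The 1.40-fold change over time under KO (edgeR adjusted p = 6.80e-04) held without each library, and the 1.25-fold change under WT (adjusted p = 0.0205) did not, with adjusted p = 0.0501 without WT 2 h replicate 1 and 0.295 without WT 0 h replicate 2.

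Psmb8, whose protein replaces Psmb5 at the chymotrypsin-like site, was scarce and its replicates disagreed under the KO labels. It had 8 and 11 reads in the WT 0 h libraries, 19 and 15 in WT 2 h, 10 and 40 in KO 0 h, and 17 and 27 in KO 2 h. Every WT 2 h library lay above both WT 0 h libraries, and the KO groups overlapped both each other and the WT 2 h group. The log2 fold change between genotype labels at 0 h was 1.73 ± 0.65 SE (edgeR adjusted p = 0.132). It was 2.47 (adjusted p = 0.00909) without KO 0 h replicate 1 and 0.23 without KO 0 h replicate 2. The summed level of 6 macrophage markers was 46.4 and 72.4 CPM in those libraries in the same order, 41.4 and 75.3 under KO 2 h replicates 1 and 2, 36.2 to 36.8 under WT 0 h and 54.7 to 56.1 under WT 2 h. None of the 6 markers was at 0 in all libraries, and Lyz2 was the highest of them in each library. Lyz2 stood at 20.5 and 20.4 CPM under WT 0 h, 36.9 and 36.8 under WT 2 h, and 29.1 and 51.5 under KO 2 h. Not all markers moved with it. In KO 2 h replicate 1, Csf1r (3.13 CPM), Cd68 (3.36) and Itgam (2.16) lay below both WT 0 h libraries. Ptprc (2.62) lay between those libraries and Emr1 (0.965) above them. The part of these markers in the Psmb8 values, and in the WT 2 h against WT 0 h and KO 0 h against WT 0 h results of the other members, was not tested.

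Psme1 and Psme2 encode the alpha and beta subunits of the activator that interferons induce. Psme1 stood at 46.8 and 44.2 CPM under WT 0 h, 63.5 and 66.1 under WT 2 h, 64.8 and 57.7 under KO 0 h, and 72.7 and 75.4 under KO 2 h. WT 0 h lay below and KO 2 h above the 2 middle groups, which overlapped. Psme1 was 1.43-fold higher at 2 h under WT (log2 fold change 0.51 ± 0.09 SE, edgeR adjusted p = 3.80e-05), a call that held without each library. Its 1.21-fold change under KO (edgeR adjusted p = 0.0116) lost its call without KO 0 h replicate 2 (adjusted p = 0.119), and its log2 value of 0.27 was 0.42 with library size alone. The 1.35-fold genotype difference at 0 h (edgeR adjusted p = 0.00657) lost its call without any 1 of WT 0 h replicate 1, KO 0 h replicate 1 or WT 0 h replicate 2 (adjusted p = 0.0824, 0.0678 and 0.206). At 2 h the genotype labels differed by 1.14-fold (edgeR adjusted p = 0.893).

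Psme2 was called between genotype labels at 2 h and in no time comparison. Its level was 14.9 and 15.1 CPM under WT 0 h, 17.5 and 12.9 under WT 2 h, 22.5 and 18.4 under KO 0 h, and 25.1 and 23.3 under KO 2 h. All 4 libraries under the KO labels lay above all 4 under the WT labels. The genotype difference at 2 h was 1.59-fold (log2 fold change 0.67 ± 0.14 SE, edgeR adjusted p = 0.00912), with adjusted p = 0.126 without KO 2 h replicate 1 and 0.489 without WT 2 h replicate 2. At 0 h it was 1.37-fold (0.45 ± 0.14, edgeR adjusted p = 0.0781), and passed without KO 0 h replicate 2 (0.58, adjusted p = 0.0437). Neither time comparison was called (0.03 under WT and 0.24 under KO), but the change under KO passed without KO 0 h replicate 1 (0.43, edgeR adjusted p = 0.0325) and with library size alone (0.39, adjusted p = 0.0198). A retrocopy, Psme2b, is annotated in GENCODE M21, but no gene of that symbol is in the count tables. Reads that match both could have been dropped or placed at the copy, so Psme2 values are uncertain.

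Tap1, 1 of the 2 chains of the peptide transporter, was called between genotype labels and not between time labels. It stood at 16.5 and 13.1 CPM under WT 0 h and 12.7 and 12.9 under WT 2 h, against 62.7 and 68.8 under KO 0 h and 73.0 and 66.2 under KO 2 h. The KO groups overlapped each other, and their lowest library, at 62.7 CPM, lay above the highest WT library, at 16.5. Tap1 was 4.43-fold higher under KO at 0 h by edgeR (SE 0.11 on the log2 scale, adjusted p = 1.71e-12) and 5.43-fold higher at 2 h (SE 0.12, adjusted p = 2.30e-13). Both calls held in every alternative and without each library. Over time its log2 fold change was -0.21 ± 0.13 under WT (edgeR adjusted p = 0.169) and 0.09 ± 0.10 under KO (adjusted p = 0.488). The former passed as a decrease without WT 0 h replicate 2 (-0.37, edgeR adjusted p = 0.0425).

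Tap2, the other chain of the transporter, differed by both labels. It stood at 21.1 and 20.5 CPM under WT 0 h, 30.0 and 34.2 under WT 2 h, 33.3 and 33.8 under KO 0 h, and 51.8 and 56.7 under KO 2 h. The WT 2 h and KO 0 h groups overlapped, WT 0 h lay below them and KO 2 h above. The change over time was 1.54-fold under WT (edgeR adjusted p = 3.02e-05, 0.62 ± 0.11 SE on the log2 scale) and 1.62-fold under KO (0.69 ± 0.10, adjusted p = 4.19e-06). Between genotype labels the difference was 1.61-fold at 0 h (0.69 ± 0.11, edgeR adjusted p = 2.24e-04) and 1.69-fold at 2 h (0.76 ± 0.10, adjusted p = 2.55e-05). All 4 calls held without each library.

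Tap1 and Psmb9 lie head to head in the class II region of the MHC on chromosome 17, and the stretch between them is shown because these 2 genes had the largest called differences between genotype labels. In RefSeq's GRCm38.p6 the start of Tap1, on the plus strand, is 226 bases from that of Psmb9, on the minus strand. The 275 bases below, chr17:34187306-34187580 on the plus strand, are common to the promoter windows of both genes, and the 2 capitals mark the start base of Psmb9 and then that of Tap1.
Psmb9-Tap1: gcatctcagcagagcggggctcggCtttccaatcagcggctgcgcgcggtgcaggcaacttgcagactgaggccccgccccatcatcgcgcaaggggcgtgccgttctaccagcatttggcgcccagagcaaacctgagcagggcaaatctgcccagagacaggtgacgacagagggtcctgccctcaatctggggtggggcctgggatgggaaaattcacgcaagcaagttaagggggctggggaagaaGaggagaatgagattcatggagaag
The 2 genes shared the rank of the KO groups above the WT groups but not the change over time under the WT label, where Psmb9 was called and Tap1 was not. GENCODE M21 has their gene spans overlap on opposite strands. Whether their exons overlap was not examined, and without a stated strand setting, any reads in the overlap cannot be told apart. The genes Psmb8, Psmb9, Tap1, Tap2 and Tapbp all lie on chromosome 17, so 5 of the 10 genes share a chromosome. Tap1 spans chr17:34187553-34197225, Psmb9 chr17:34181987-34187764, Psmb8 chr17:34197721-34201454, Tap2 chr17:34203527-34216321 and Tapbp chr17:33915899-33929292 in GRCm38.

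Tapbp, the tapasin gene, was among the more abundant members and was higher under the KO labels. It stood at 114 and 107 CPM under WT 0 h, 103 and 113 under WT 2 h, 131 and 147 under KO 0 h, and 182 and 180.0 under KO 2 h. The WT groups overlapped, and the KO groups lay apart from them and from each other. The genotype difference at 2 h was 1.67-fold (edgeR adjusted p = 1.00e-06, 0.74 ± 0.08 SE on the log2 scale) and held without each library. At 0 h it was 1.26-fold (edgeR adjusted p = 0.0244) and lost its call without WT 0 h replicate 1, WT 0 h replicate 2 or KO 0 h replicate 2 (adjusted p = 0.179, 0.347 and 0.181). Over time Tapbp was 1.30-fold higher under KO (0.38 ± 0.08, edgeR adjusted p = 3.47e-04), while under WT the log2 fold change was -0.03 ± 0.08 (adjusted p = 0.768). Tapbp overlaps Zbtb22 on the same strand in GENCODE M21, a gene with 439 to 768 reads per library.

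Tapbpl, the tapasin-related peptide editor, was higher under both 2 h labels. Its level was 7.28 and 5.90 CPM under WT 0 h, 11.4 and 10.1 under WT 2 h, 8.44 and 5.95 under KO 0 h, and 11.9 and 12.7 under KO 2 h. The 0 h groups overlapped, and every 2 h library lay above every 0 h library. The change was 1.63-fold under WT (edgeR adjusted p = 0.00185, 0.70 ± 0.18 SE on the log2 scale) and 1.69-fold under KO (0.75 ± 0.18, adjusted p = 0.00104), and both calls held without each library. Between genotype labels its log2 fold change was 0.14 ± 0.19 at 0 h (edgeR adjusted p = 0.729) and 0.19 ± 0.17 at 2 h (adjusted p = 1).

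Erap1, the trimming peptidase, passed no pairwise test. It stood at 25.7 and 22.3 CPM under WT 0 h, 26.5 and 21.8 under WT 2 h, 29.4 and 31.8 under KO 0 h, and 25.5 and 25.0 under KO 2 h. The KO 0 h libraries lay above the other 6, which overlapped. Its log2 fold change between genotype labels at 0 h was 0.35 ± 0.12 SE (edgeR adjusted p = 0.102), and that between KO 2 h and KO 0 h was -0.27 ± 0.12 (adjusted p = 0.0552). Its gene span overlaps that of Cast, on the opposite strand, which had 2540 to 4139 reads per library.

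Whether the change over time differed between genotype labels was tested by the interaction. Of the 10 genes, 0 were called by edgeR and 0 by DESeq2, 1 had an unadjusted edgeR p below 0.05, and 0.133% of all genes tested (17) were called. That last count was 6 without WT 2 h replicate 1, 9 without WT 0 h replicate 2, 30 and 91 without KO 0 h replicates 2 and 1, and 35 without KO 2 h replicate 2. The gene below 0.05 was Tapbp, with a difference of 0.41 ± 0.12 SE on the log2 scale (edgeR adjusted p = 0.184). The difference for Psmb9 was -0.87 ± 0.43 (adjusted p = 0.399), so the loss of its time call under the KO label is not shown to be a difference between the labels. This contrast has the same value if the WT 2 h and KO 0 h labels are exchanged.

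Because levels of different genes can be compared only per transcript length, RPKM (CPM per kilobase of the principal coding transcript in GENCODE M21) were set side by side. Under WT 0 h, Psme1 stood at 40.9 ± 1.64 RPKM (SD, n = 2) and Tapbp at 38.1 ± 1.66, followed by Psmb10 at 16.0 ± 1.73 and Psme2 at 15.6 ± 0.136. Tap2 stood at 6.05 ± 0.116, Tap1 at 5.02 ± 0.813, Erap1 at 4.25 ± 0.437 and Tapbpl at 2.80 ± 0.416. Psmb9 at 0.543 ± 0.100 and Psmb8 at 0.286 ± 0.0650 RPKM were the 2 lowest. Neighbours in this order changed places for 3 pairs with the mean transcript length of each gene: Tapbp passed Psme1, Psme2 passed Psmb10, and Erap1 passed Tap1. That length moved several RPKM by over 1.5 times, with Tap2 at 14.9, Erap1 at 13.7, Tapbp at 84.1, Psmb9 at 0.953 and Psmb8 at 0.494, so these levels rest on the length taken.

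The inducible catalytic subunits stayed a minority next to their constitutive counterparts under every label. Per length, Psmb9 was 0.298 ± 0.0486% of Psmb6 under WT 0 h, 1.01 ± 0.118% under WT 2 h, 1.78 ± 0.0261% under KO 0 h and 3.16 ± 0.262% under KO 2 h (SD, n = 2). Psmb10 was 9.54 ± 1.13%, 14.9 ± 1.02%, 13.1 ± 0.0112% and 24.2 ± 1.65% of Psmb7 in the same order, and Psmb8 was 1.07 ± 0.247%, 2.10 ± 0.607%, 3.73 ± 3.58% and 3.20 ± 1.76% of Psmb5. For Psmb9 and Psmb10 the 4 groups did not overlap, with KO 2 h highest. Psmb6 and Psmb7 were themselves lower at 2 h, by 0.41 and 0.33 on the log2 scale under WT and by 0.37 and 0.41 under KO. Part of the higher percentages of Psmb9 and Psmb10 at 2 h thus lies in the partner genes. Psme1 was 41.8 ± 1.92% of Psme3, the gene of a related nuclear activator, under WT 0 h and 79.8 ± 2.37% under WT 2 h. Under the KO labels it was 55.8 ± 4.19% at 0 h and 90.1 ± 2.75% at 2 h. Psme3 itself was lower at 2 h, by 0.42 ± 0.07 SE on the log2 scale under WT (edgeR adjusted p = 3.03e-05). It was lower by 0.42 ± 0.07 under KO (adjusted p = 3.67e-05), so part of the higher percentage at 2 h lies in the partner gene. For the transporter chains, Tap1 was 82.8 ± 11.8% of Tap2 per length under WT 0 h and 46.8 ± 3.76% under WT 2 h, but 229 ± 12.7% under KO 0 h and 150 ± 19.8% under KO 2 h. Tap2 itself was higher at 2 h, by 0.62 on the log2 scale under WT and by 0.69 under KO. Tap1 was called over time under neither label, so part of the lower percentage at 2 h lies in Tap2. With the mean transcript length of each gene, an alternative added after the values were seen, Tap1 was 48.5%, 27.4%, 134% and 87.8% of Tap2 under WT 0 h, WT 2 h, KO 0 h and KO 2 h, so that it no longer exceeded Tap2 under KO 2 h. Psmb9 was then 0.523%, 1.77%, 3.12% and 5.53% of Psmb6, 1.75 times the values above in each group. Psme1 was then 29.6%, 56.6%, 39.5% and 63.8% of Psme3 in the same order. The length taken scales a pair alike in all groups and leaves their order as it is. These percentages describe levels and were not tested.

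**Figure D3:**
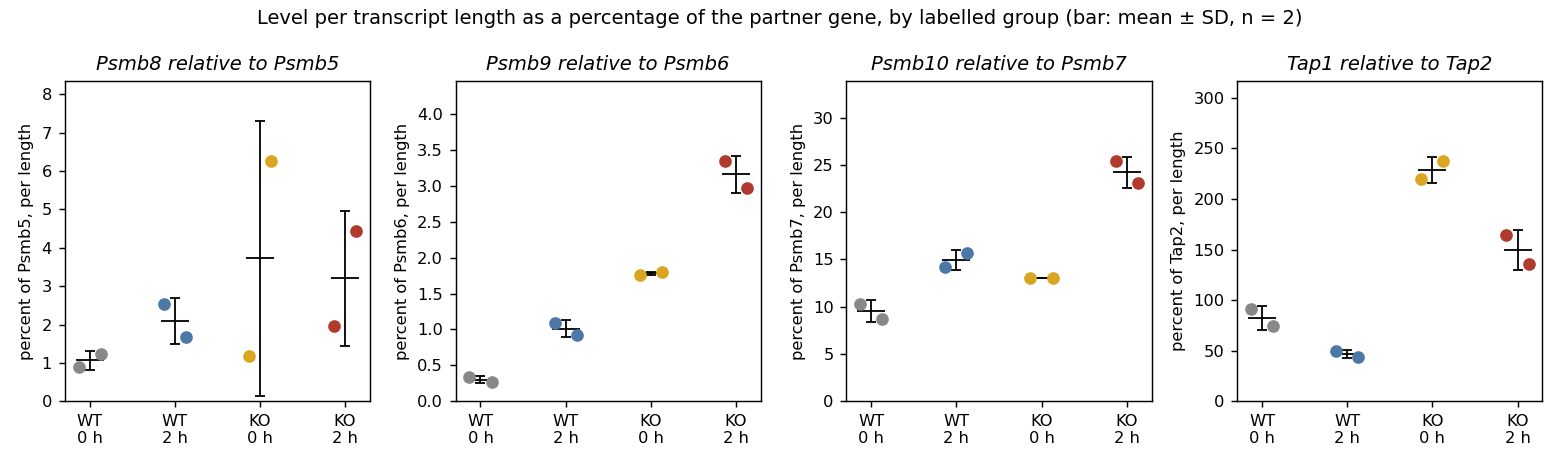
Level per transcript length as a percentage of the partner gene (y axis, linear, from 0) in each library, by label; bars are the mean ± SD of 2 libraries. Psmb9 reaches 3.16% of Psmb6 and Psmb10 24.2% of Psmb7 under KO 2 h, and Tap1 exceeds Tap2 in the 4 libraries labelled KO and in none labelled WT. This uses principal transcript lengths; with mean lengths Tap1 is 87.8% of Tap2 under KO 2 h.

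The other genes of the pathway were read from lists, which were drawn up with earlier results of these data known. Among 40 further proteasome genes (constitutive catalytic subunits, the rest of the core, the regulatory particle, and other activators, inhibitors and assembly factors), 0 rose and 28 fell at 2 h under the WT label, where 61.2% of all genes were called and 31.1% were called lower. DESeq2 likewise called 0 higher, and 28 had an unadjusted edgeR p below 0.05. Under the KO label 2 rose (Psmf1 and Psmd8, named because they were the exceptions) and 30 fell, beside 61.1% of all genes called and 31.2% called lower. Their median log2 fold change was -0.39 under WT and -0.44 under KO, the opposite sign to that of the 10 genes. Of the rest of the core, 11 of 11 genes fell under WT and 10 of 11 under KO. The subunit gene Psma5 fell by 0.82 ± 0.10 (edgeR adjusted p = 2.68e-07) under WT and by 0.64 ± 0.10 (adjusted p = 9.36e-06) under KO. Of the constitutive catalytic genes, Psmb6 fell by 0.41 ± 0.08 (edgeR adjusted p = 1.24e-04) under WT and by 0.37 ± 0.08 (adjusted p = 4.96e-04) under KO, and Psmb7 by 0.33 ± 0.08 and 0.41 ± 0.09. Psmb5 did not pass in either (0.06 and -0.12). Of 18 regulatory particle genes, 10 fell and 0 rose under WT, where 31.1% of all genes were called lower. Under KO 12 fell and 1 rose, where 31.2% were called lower. Psmd1 fell by 0.75 ± 0.08 and 0.95 ± 0.08.

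Between genotype labels these 40 genes gave 1 call. Of all genes tested, 3.92% were called at 0 h and 1.60% at 2 h, so few calls in a list of this size lie near the share of all genes. At 0 h, 0 were higher and 1 was lower (Psmb2, by 0.28 ± 0.08, edgeR adjusted p = 0.0487), where 8 had an unadjusted p below 0.05 and DESeq2 called 0 higher and 1 lower. At 2 h edgeR and DESeq2 each called 0, and 0 had an unadjusted p below 0.05. Their median log2 fold change was 0.04 at 0 h and -0.02 at 2 h, beside 0.48 and 0.67 for the 10 genes.

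Of the 3 general chaperones of loading, 1 fell at 2 h under WT and 3 under KO, where 31.1% and 31.2% of all genes were called lower. Calr, the calreticulin gene, fell by 0.68 ± 0.09 (edgeR adjusted p = 2.10e-06) under WT and by 0.81 ± 0.09 (adjusted p = 1.58e-07) under KO. Pdia3, a thiol reductase of the loading complex, and the calnexin gene Canx fell only under the KO label by the test (by 0.43 and 0.23, against -0.18 and 0.03 under WT), and edgeR's interaction did not pass for either (adjusted p = 0.352 and 0.332). Of 7 other peptidases, 1 rose and 3 fell under WT and 1 rose and 4 fell under KO, with Blmh, a bleomycin hydrolase, falling by 1.20 ± 0.09 and 1.30 ± 0.09. With 4 and 5 of 7 called, these peptidases lay near the 61.2% and 61.1% of all genes. Between genotype labels neither list gave a call in edgeR or DESeq2. With 3.92% and 1.60% of all genes called by edgeR at 0 h and 2 h, lists this short would give few calls in any case. At an unadjusted p below 0.05, edgeR gave 2 of the 3 chaperones and 3 of the 7 peptidases at 0 h, and 0 of each at 2 h.

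The class I light and heavy chains and their coactivator Nlrc5 were higher under the 2 h labels. All 4 genes of that list were called higher under either genotype label, beside 30.1% of all genes under WT and 30.0% under KO. Nlrc5, which drives class I genes and several of the members described here, rose by 2.63 ± 0.22 (edgeR adjusted p = 7.38e-10) under WT and by 1.78 ± 0.18 (adjusted p = 2.06e-08) under KO on the log2 scale. The Nlrc5 level under WT 0 h rests on 27 to 32 reads per library. The light chain gene B2m rose by 1.40 ± 0.08 and 1.21 ± 0.08 (edgeR adjusted p = 1.32e-12 and 1.39e-11). Between genotype labels 3 of 4 were higher at 0 h (Nlrc5 1.64 ± 0.25, B2m 0.41 ± 0.08, H2-D1 0.32 ± 0.08), beside 2.65% of all genes called higher. At 2 h 1 was higher (Nlrc5 0.79 ± 0.17, edgeR adjusted p = 0.00815), beside 1.59% of all genes.

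The transcription factors known to act on interferon-responsive promoters were higher under the KO labels. The 4 genes Irf1, Irf2, Irf9 and Stat2 were all higher under the KO label at 0 h and at 2 h, where 2.65% and 1.59% of all genes were called higher. Stat2, a subunit of the factor that binds the interferon-stimulated response element, was higher by 3.93 ± 0.10 SE on the log2 scale at 0 h (edgeR adjusted p = 8.42e-19) and by 3.57 ± 0.09 at 2 h (adjusted p = 3.21e-18). Irf1 was higher by 2.37 ± 0.11 and 2.52 ± 0.11, and Irf9, the DNA-binding partner of Stat2, by 3.17 ± 0.12 and 2.42 ± 0.11. Over time 2 rose under either genotype label, where 30.1% (WT) and 30.0% (KO) of all genes were called higher. Stat2 rose by 0.93 ± 0.10 under WT and 0.57 ± 0.08 under KO and Irf9 by 1.08 ± 0.13 and 0.33 ± 0.10. Irf2 fell by 0.34 ± 0.11 under WT (edgeR adjusted p = 0.00827) and was at 0.12 ± 0.10 under KO (adjusted p = 0.314). The interaction did not pass in edgeR for Irf9, Irf2 or Stat2 (adjusted p = 0.0783, 0.243 and 0.284). DESeq2 called 1 of the 4 genes lower in it, beside 19 lower among all genes.

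**Figure D4:**
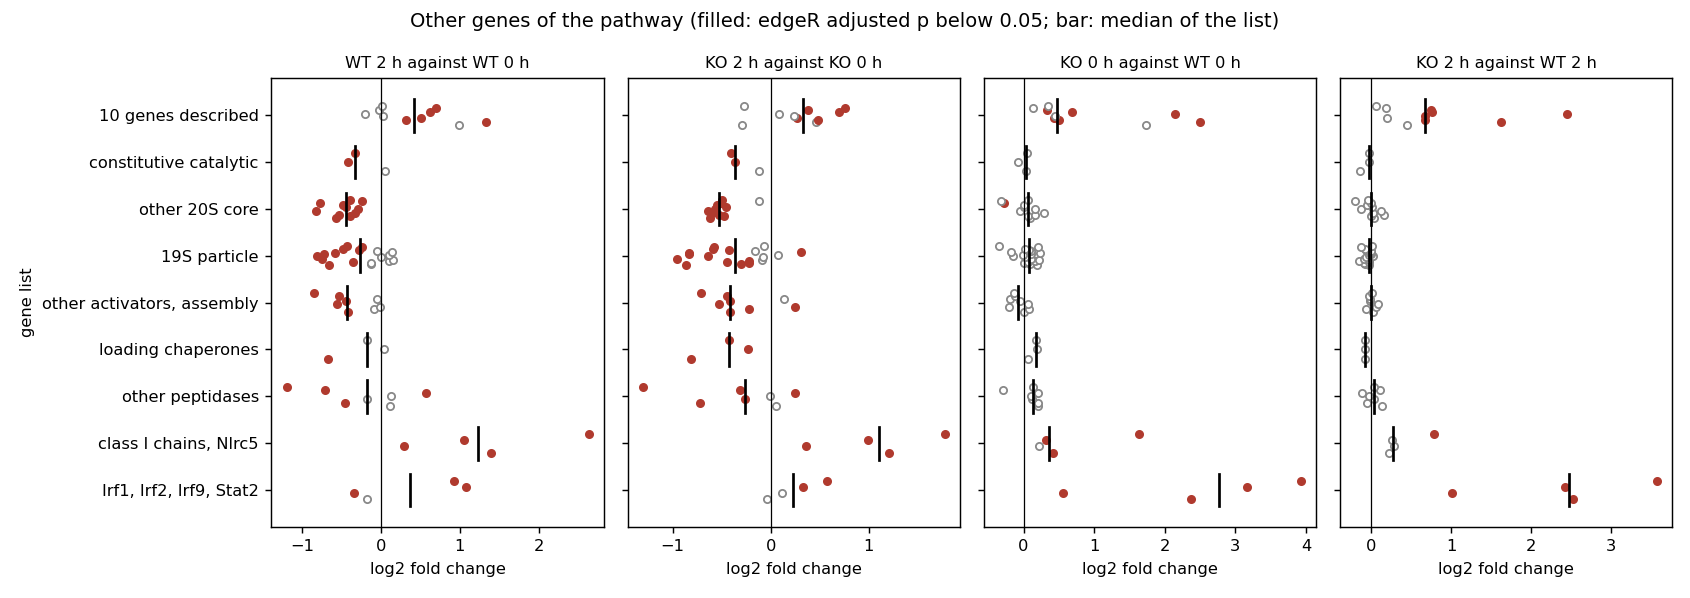
Log2 fold change (x axis) of the reported genes of each list in the 4 comparisons, with lists on the y axis; filled red points have an edgeR adjusted p below 0.05, and the black bar is the median of a list. The 10 genes have medians of 0.33 to 0.67 in the 4 panels, while the other core subunits have medians of -0.45 and -0.53 at 2 h against 0 h and near 0 between genotype labels.

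Promoter windows of RefSeq (GRCm38.p6, 250 bases before to 50 after the start) were found by symbol for 8 of the 10 genes, in 9 windows. They were searched on both strands for the core of the interferon-stimulated response element, GAAANNGAAA, and for the interferon-gamma activated site, TTCNNNGAA, and no match overlapped another. The first was present in 2 of the 8 genes, Psme1 and Erap1, beside 1079 of 27025 genes with a window. By window it was present in 3.44% of 32851 windows of all genes. The second was present in 1 of the 8, Psmb8, and in 8.30% of all windows, a share by window and not by gene. The 3 stretches with a match are shown on the plus strand, with the match in capitals, since they set a called gene (Psme1) beside 2 that were not (Erap1 and Psmb8). The Psme1 stretch is chr14:55578473-55578542, the Erap1 stretch chr13:74639819-74639888 and the Psmb8 stretch chr17:34198068-34198136.
Psme1: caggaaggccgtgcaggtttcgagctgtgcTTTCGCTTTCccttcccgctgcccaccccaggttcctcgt
Erap1: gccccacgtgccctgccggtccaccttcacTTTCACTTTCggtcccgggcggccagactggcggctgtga
Psmb8: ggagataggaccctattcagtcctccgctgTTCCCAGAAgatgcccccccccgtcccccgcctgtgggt
With the start base as position 0, the match lies at 9 to 18 in Psme1, at -4 to 5 in Erap1 and at -97 to -89 in Psmb8, and the first 2 read GAAAGCGAAA and GAAAGTGAAA on the minus strand. Windows of Psmb9, Psmb10, Psme2, Tap1 and Tapbp did not hold these letters, which says nothing of sites elsewhere or with other letters. GENCODE M21 starts Psme1 at chr14:55578123, Erap1 at chr13:74639568 and Psmb8 at chr17:34197721, so all 3 stretches lie inside these spans. The Tapbp window, chr17:33919228-33919527, likewise lies inside its span, which starts at chr17:33915899. Whether a window is a promoter thus rests on the start taken.

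The members varied together to different degrees over the 8 libraries. As a description over 8 libraries that share groups and scaling, Pearson's r of log2 CPM was 0.96 between Psmb10 and Tap2 and 0.93 between Psmb9 and Psmb10, 0.72 between Tap1 and Tap2, 0.63 between Psme1 and Psme2, and 0.17 between Tap1 and Tapbpl. Erap1 and Tapbpl gave -0.21. The genes most alike, among 11543 with enough reads, were found by r with the mean scaled log2 CPM of a role. For the catalytic subunits they were Trim34b (0.97), Sp140 (0.97), BC051226 (0.97), Casp4 (0.96) and Herc6 (0.96). Psmb8, which entered that mean, gave r of only 0.59 with Psmb9 and 0.44 with Psmb10. Under WT 0 h, Trim34b had 3 to 6 reads per library and BC051226 7 to 10. Those most like the activator pair were Wdr35 (0.96), Casp4 (0.96), Apol10b (0.96), Cd274 (0.96) and Hoxd8 (0.96). Those most like the loading genes were Xaf1 (0.99), Ifi35 (0.98), Daxx (0.98), Parp14 (0.98) and Sp140 (0.98). Xaf1 stood at 2.55 ± 1.31 CPM (SD, n = 2) under WT 0 h, 7.01 ± 0.301 under WT 2 h, 48.6 ± 6.69 under KO 0 h and 99.0 ± 12.3 under KO 2 h.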

How the data were processed

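Reads per gene were measured by RNA sequencing in 8 libraries. The authors deposited raw counts, 1 table of whole numbers per library with 23304 gene symbols. Per the submitters' processing notes, the tools were HTSeq, STAR 2.5.2b and bcl2fastq 2.15, and the genome build was mm9. The sources used here give neither the role of each tool nor the annotation or strand setting. Summary lines, 36.9 to 43.2% of reads (14.1 to 17.0% mapped to several places), entered neither library sizes nor tests.

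Counts were tested with edgeR 4.0.16 (R 4.3.3): filterByExpr by group (minimum count 10, total 15), TMM scaling, 1 robust quasi-likelihood model over the 8 libraries with 1 coefficient per labelled group (4 residual degrees of freedom, biological coefficient of variation 6.74%), and Benjamini-Hochberg adjustment over 12807 genes. The count of 3 reads that a count of 0 allows corresponds to 0.138 to 0.210 CPM and covers counting error only. The scripts were tested on simulated data. Replicates differed by more than sampling noise (chi-square per degree of freedom 2.94 to 9.18). Alternatives were RLE scaling, library size alone, DESeq2 1.42.0, other filters, a fold threshold of 1.5, the replicate block, only the libraries compared, and the omission of each library. All 10 genes were named in every comparison. From each list, up to 3 genes with the largest absolute log2 fold change were eligible to be named, others being named as exceptions or for their role after their values were seen. Members and lists were chosen with earlier results of these data known. A gene of the transcription factor list is not reported here. Transcript lengths came from GENCODE M21 and promoter windows from RefSeq, both on GRCm38, matched by symbol.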

Additional observations from a re-analysis of the deposited data

How the results depend on the processing

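Counts of members called were 5, 5, 6, 6 and 0 (WT and KO over time, KO against WT at 0 h and 2 h, interaction). Against a fold of 1.5 they were 1, 0, 2 and 2, beside 2939, 3012, 110, 111 and 5 of all genes with the interaction last; the construction asks for larger changes. The genotype comparison at 0 h called 809 genes without a filter on low counts and 322 with the replicate block, against 502. The replicate block left each count of members as it was. Same-numbered libraries did not deviate together over all genes tested (correlations -0.0533 to -0.0053). Counting noise over so many genes can hide a shared deviation, so this cannot tell whether the numbers pair libraries. The interaction called 33 genes with DESeq2 and 113 without a filter, against 17. Leaving out 1 library each, members called ranged from 4 to 5, 4 to 6, 3 to 6, 5 to 6 and 0 to 0, and all genes at 0 h from 174 to 1073 and in the interaction from 6 to 91.

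Uncalled log2 values changed sign. Under WT over time, Tapbp was 0.11 with library size alone and Erap1 -0.0014 without a filter. Leaving out 1 library each, Psme2 ranged from -0.17 to 0.26, Tapbp from -0.086 to 0.073 and Erap1 from -0.10 to 0.18 in that comparison. Psmb8 ranged from -1.04 to 1.20 under KO over time, and Tapbpl from -0.19 to 0.35 between genotype labels at 0 h. Psmb8 ranged from -0.26 to 1.01 and Erap1 from -0.077 to 0.20 at 2 h. In the interaction Psmb8 ranged from -2.02 to 0.22, Tap2 from -0.034 to 0.16 and Tapbpl from -0.16 to 0.38. The cause was not tested. Among other alternatives, no filter on low counts added Psmb8 and Psme2 to the members called at 0 h (8 called). Only the libraries compared was not run for the interaction. Depth limits Psmb8 and Psmb9 most. No member had a called log2 value that reversed.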
